A study of Rattus norvegicus with 6 samples.

Results

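Among the genes measured in cultured neonatal rat ovaries, 10 encode transcription factors that build the gonad or define its granulosa cells: Foxl2, Gata4, Gata6, Wt1, Nr5a1, Nr5a2, Nr0b1, Lhx9, Emx2 and Runx1. They were taken by name. Every probe set (a group of short probes that together report 1 transcript on the array) whose only gene symbol was one of these was used. This gave 17 probe sets for the 10 genes, out of 31042 probe sets on the array and 14217 named genes. Gata4, Gata6, Wt1, Nr5a1 and Runx1 had 2 probe sets each, Nr5a2 had 3, and the other genes had 1.

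The RNA came from ovaries of Sprague-Dawley rats taken on postnatal day 4 and kept as whole organs on floating filters for 48 h. The control group received no factor. The treated group received 50 ng/ml of recombinant human NT3, a neurotrophin, and the rest of the medium was the same in both groups. There were 3 control and 3 NT3 samples with 1 array each, and each sample pooled 2 to 3 ovaries. The labels name the replicates biological but do not tie them to animals or litters, and the errors given here therefore measure only the spread between these samples. In RNA from whole ovaries, fewer cells of a type and less RNA per cell cannot be told apart.

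At this age most follicles are primordial, an arrested oocyte wrapped in flat pregranulosa cells, and the series title concerns their passage to the primary stage. Wt1, Emx2, Lhx9, Nr5a1 and Gata4 act in the early genital ridge, the thickened epithelium from which the gonad grows. Foxl2 and Runx1 later maintain the granulosa identity of the supporting cells, and Foxl2 is needed when flat granulosa cells turn cuboidal. Nr5a1 and its relative Nr5a2 bind DNA as single receptor molecules and switch on steroid synthesis and inhibin genes, together with Gata4 and Gata6, while Nr0b1 restrains Nr5a1. Several of these factors, Wt1, Lhx9, Emx2 and Gata4 among them, are also made in the epithelium that covers the ovary.

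The promoters of the nuclear receptor genes are shown because Nr5a2 and Nr0b1 were lowest on the same arrays of both groups and Nr5a1 was not. RefSeq promoter sequences of the rat assembly GRCr8, 250 bases before to 50 bases after the gene start, were found for 6 of the 10 members (Gata6, Wt1, Nr5a1, Nr5a2, Nr0b1 and Runx1). They are written 5′ to 3′ on the gene's strand, and capitals mark each match to a searched motif. The Nr5a2 promoter lies at chr13:50984889-50985188 on the minus strand, the Nr0b1 promoter at chrX:54707408-54707707 on the plus strand and the Nr5a1 promoter at chr3:42895997-42896296 on the minus strand.
Nr5a2: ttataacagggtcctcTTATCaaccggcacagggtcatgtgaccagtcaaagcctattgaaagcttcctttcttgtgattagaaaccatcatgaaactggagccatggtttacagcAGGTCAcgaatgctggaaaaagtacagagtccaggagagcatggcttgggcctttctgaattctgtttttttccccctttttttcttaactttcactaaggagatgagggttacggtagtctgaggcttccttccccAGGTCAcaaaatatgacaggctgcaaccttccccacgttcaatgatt
Nr0b1: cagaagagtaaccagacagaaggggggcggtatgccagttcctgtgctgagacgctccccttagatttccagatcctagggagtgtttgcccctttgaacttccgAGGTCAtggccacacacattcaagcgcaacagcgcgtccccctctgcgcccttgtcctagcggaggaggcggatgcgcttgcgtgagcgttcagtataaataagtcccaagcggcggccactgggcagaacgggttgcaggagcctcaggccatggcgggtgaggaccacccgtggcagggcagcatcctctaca
Nr5a1: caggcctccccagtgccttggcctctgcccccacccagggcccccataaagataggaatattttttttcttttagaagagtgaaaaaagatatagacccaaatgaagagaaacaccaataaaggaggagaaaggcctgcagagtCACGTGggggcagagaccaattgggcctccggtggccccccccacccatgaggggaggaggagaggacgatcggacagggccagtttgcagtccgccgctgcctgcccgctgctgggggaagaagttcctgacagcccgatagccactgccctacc
The motifs were GATAA for GATA factors, AGGTCA as the core bound by NR5A and other nuclear receptors, TGTGGT for RUNX factors, GTAAACA for forkhead factors, TAATTA for homeodomain factors and CACGTG, the E-box. Each was searched on both strands, and no matches overlapped.

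The Nr5a2 promoter held GATAA on the opposite strand, as TTATC beginning 234 bases before the start, and AGGTCA 134 bases before the start and again just after it. The Nr0b1 promoter held AGGTCA 145 bases before the start. The Nr5a1 promoter held CACGTG 106 bases before the start, and the Wt1 promoter held CACGTG 157 bases before it. AGGTCA occurred in 16.2% of the 33469 promoters in the table, GATAA in 26.5% and CACGTG in 6.42%. The RUNX, forkhead and homeodomain motifs, which occurred in 17.3%, 3.78% and 5.36% of all promoters, were not among the letters of the 6 windows. A match of letters describes the sequence and not a bound site. The printed promoters were picked by an array pattern of these same data, and any relation of their motifs to that pattern was not tested.

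Of the 17 probe sets, 15 had enough signal to be tested, that is, a mean log2 signal above the 40th percentile of all probe sets, or about 41.3 units. The probe sets 1369859_at of Nr5a1 and 1387573_a_at of Nr5a2 lay below it. Where a gene had several probe sets, the one with the highest mean log2 signal is called its main probe set. Signals of different probe sets cannot be ranked against each other, because each binds its target with its own strength.

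The arrays were on 1 scale, with median signals of 69.0 to 75.0, but control replicate 2 stood apart in RNA quality. Its ratio of 3′ to 5′ signal for beta-actin, which grows when RNA is degraded, was 6.83, against 2.42 to 2.91 on the other 5 arrays. In the tissue check, 9 of 9 annotated granulosa markers and 8 of 8 annotated oocyte markers were above the signal filter, and none of the 4 annotated adrenal cortex markers was, at signals of 1.6 to 38.2. Nr5a1 and Nr0b1 are also adrenal genes, which is why those markers were checked.

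No probe set of the 10 transcription factor genes passed the test between NT3-treated and control ovaries, and in all 17 the NT3 and control arrays overlapped. By limma, 0 of the 15 tested member probe sets had an adjusted p under 0.05, where the background over all 18625 tested probe sets was 0%. None of the 15 had an unadjusted limma p under 0.05, against a background of 1.29%, or 240 probe sets, which became 401 when the fit held the replicate number as a block. The groups were separate in 0 of the 15, against a background of 5.83%. The log2 differences of NT3 minus control ran from -0.20 to 0.26, with 7 above and 8 below 0 and a median of -0.034, beside a median of -0.001 over all tested probe sets, of which 49.8% were above 0. Without control replicate 2, 8 were above and 7 below 0 with a median of 0.008. The sign turned when some single array was left out for all but 3 of the 15, the exceptions being Wt1 1377223_at, Gata6 1375613_at and Runx1 1395442_at.

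**Figure D1:**
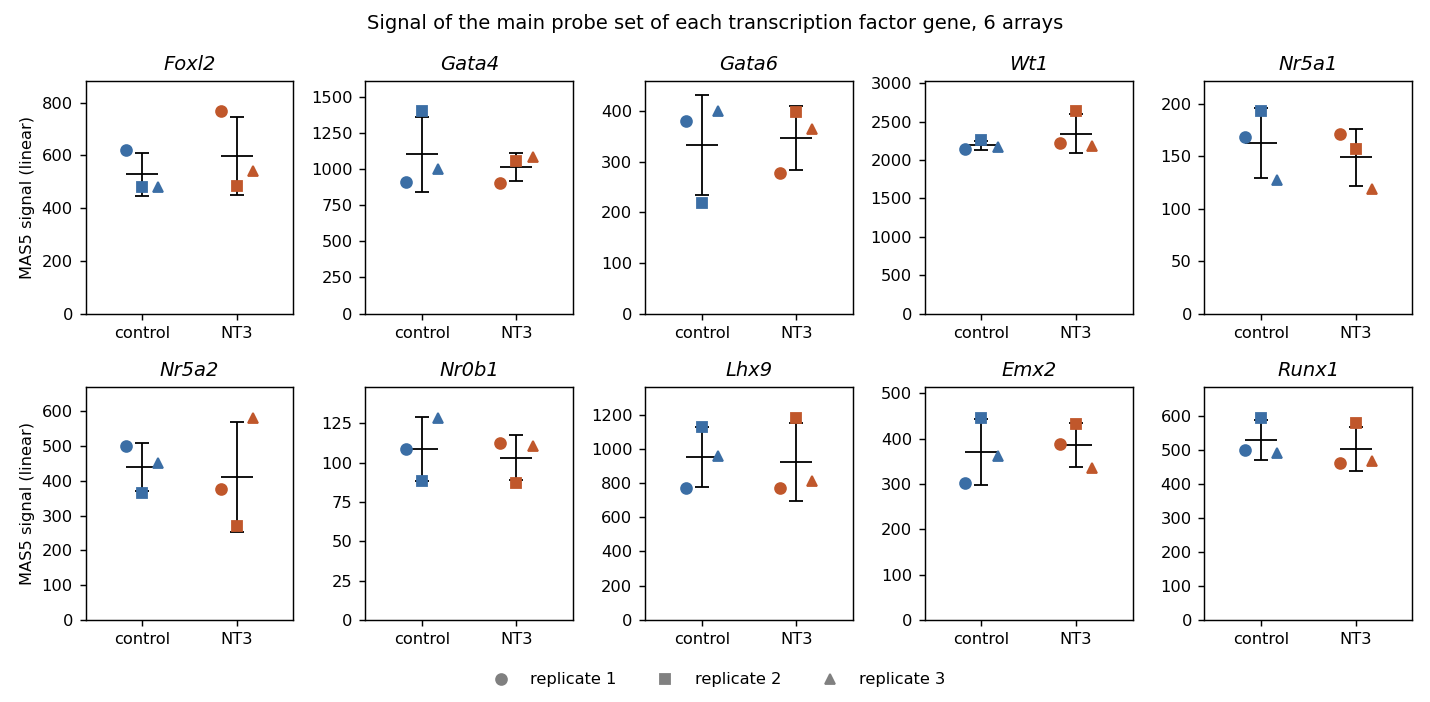
MAS5 signal on a linear axis from 0 for the main probe set of each of the 10 genes, with the 3 control arrays in blue and the 3 NT3 arrays in orange. Marker shapes give the replicate number, and bars give the mean and SD of a group. The groups overlap in every panel, and for Lhx9, Emx2 and Runx1 the squares of replicate 2 are the highest points of both groups.

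Foxl2, the granulosa forkhead factor that holds off testis-type differentiation, had, in the order of replicates 1 to 3 that is kept for all genes, control signals of 621.9, 481.5 and 478.8 and NT3 signals of 766.5, 483.5 and 542.4. Replicate 1 was the highest array of each group, and the NT3 values of replicates 2 and 3 lay inside the control range. The means were 527 ± 81.9 and 597 ± 149 (SD, n = 3). The log2 difference was 0.16 ± 0.18 (SE) with a 95% interval from -0.26 to 0.58 and an adjusted limma p of 1.00. It was -0.031 without NT3 replicate 1.

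Runx1, a second factor that supports granulosa identity in the fetal ovary and is also a leukocyte gene, was measured by 2 probe sets that ranked the arrays almost alike. Probe set 1368914_at gave 501.1, 596.4 and 492.5 in control and 463.0, 579.5 and 468.1 in NT3. Probe set 1395442_at gave 144.8, 177.3 and 147.1 in control and 125.7, 155.1 and 128.8 in NT3. Replicate 2 was the highest array of each group on both probe sets, and within each replicate number the NT3 array was the lower one. The log2 differences by number were -0.11, -0.04 and -0.07 for 1368914_at and -0.20, -0.19 and -0.19 for 1395442_at. The mean difference of 1395442_at was -0.20 ± 0.16 with an interval from -0.57 to 0.18, and that of 1368914_at -0.08 ± 0.13 with an interval from -0.38 to 0.23, the latter 0.012 without control replicate 2. Neither passed limma, with an adjusted p of 1.00 for both, and again when the replicate number was a block. Leukocyte markers, which could carry Runx1 signal, had 6 of 7 tested genes above 0 and a median log2 difference of 0.22, or 0.131 without control replicate 2, and their summed signal was 1201 to 1354 in control and 1338 to 1497 in NT3. Their part in the Runx1 values was not tested.

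The GATA factors bind the same DNA motif in granulosa, theca and stromal cells. The main Gata4 probe set, 1387894_at, gave 906.7, 1397.9 and 999.5 in control and 902.8, 1051.9 and 1083.8 in NT3, with a log2 difference of -0.10 ± 0.16. The second, 1370293_at, gave 171.2, 70.3 and 131.4 in control and 126.3, 162.2 and 131.3 in NT3, with 0.26 ± 0.30. In control replicate 2 the first probe set of this gene was at its highest and the second at its lowest. That array had the high beta-actin ratio, whose part in this disagreement was not tested. Without it the log2 differences were 0.085 for 1387894_at and -0.109 for 1370293_at, each with its sign turned.

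Gata6 gave 381.2, 218.7 and 399.5 in control and 277.5, 398.2 and 365.5 in NT3 on its main probe set, 1368827_at. Its second probe set, 1375613_at, close to the signal filter, gave 61.8, 33.2 and 37.0 in control and 61.6, 49.7 and 42.0 in NT3. Control replicate 2 was the lowest array on both, as for Gata4 1370293_at. The log2 differences were 0.09 ± 0.24, with an interval from -0.45 to 0.64, and 0.25 ± 0.30, with an interval from -0.42 to 0.93. Without control replicate 2 they were -0.186 and 0.078.

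Wt1, a zinc finger factor of the genital ridge, the ovarian surface and early granulosa cells, had the lowest spread of the 15 tested member probe sets, with a residual SD of 0.11 on the log2 scale. Its main probe set, 1377223_at, gave 2148.3, 2256.7 and 2165.6 in control and 2219.7, 2633.4 and 2181.2 in NT3, and 5 of the 6 arrays lay between 2148.3 and 2256.7. The NT3 mean of 2345 ± 251 and the control mean of 2190 ± 58.2 (SD, n = 3) differed by 0.09 ± 0.10 on the log2 scale, with an interval from -0.14 to 0.33. That interval reached at most 1.25-fold above and 1.10-fold below control. The second probe set, 1369695_at, gave 254.5, 184.8 and 244.4 in control and 247.1, 254.9 and 170.1 in NT3, and its difference was -0.034 ± 0.20.

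The nuclear receptors came next in the pathway that leads to steroid and inhibin genes. Nr5a1, steroidogenic factor 1, gave 168.1, 192.7 and 127.2 in control and 171.2, 156.9 and 118.4 in NT3 on 1393286_at, and replicate 3 was the lowest array of each group. Its log2 difference was -0.12 ± 0.21, with an interval from -0.60 to 0.35. Its other probe set, 1369859_at, was not tested and ran from 15.2 to 29.7 on 5 arrays and was at 1.1 in NT3 replicate 2.

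Nr5a2, liver receptor homolog 1, which granulosa cells need for ovulation and luteal function, had the highest spread of the 15 tested member probe sets, with a residual SD of 1.03 on the log2 scale for 1384835_at, where the median over all tested probe sets was 0.21. Probe set 1390965_at gave 500.9, 363.3 and 452.4 in control and 377.1, 270.1 and 581.8 in NT3. Probe set 1384835_at gave 188.8, 39.2 and 158.2 in control and 118.0, 68.4 and 196.0 in NT3. The untested 1387573_a_at gave 71.6, 2.9 and 59.7 in control and 34.3, 16.5 and 69.3 in NT3. On all 3 probe sets both arrays numbered 2 were below the other 4, and NT3 replicate 1 came next above them.

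The spread of Nr5a2 within a group was larger than its difference between groups. Among controls alone, the highest array was 4.82 times the lowest on 1384835_at and 1.38 times on 1390965_at. The log2 differences were -0.16 ± 0.25, with an interval from -0.73 to 0.42, for 1390965_at and 0.14 ± 0.58, with an interval from -1.17 to 1.46, for 1384835_at. The signs of these probe sets of 1 gene were opposite, and the second interval reached 2.75-fold above and 2.25-fold below control. Without control replicate 2 both were negative, at -0.288 and -0.569.

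Nr0b1, also called Dax1, which holds back Nr5a1, gave 108.7, 88.1 and 128.8 in control and 112.4, 87.1 and 110.4 in NT3. Replicate 2 was the lowest array of each group, at nearly the same signal in both. The NT3 difference was -0.06 ± 0.20, with an interval from -0.52 to 0.40.

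The homeobox factors Lhx9 and Emx2, both needed for the genital ridge to form, stood out on the arrays numbered 2. Lhx9 gave 773.4, 1126.4 and 958.6 in control and 771.8, 1182.9 and 812.1 in NT3, so that both arrays numbered 2 were above the other 4. Emx2 gave 302.9, 446.7 and 362.0 in control and 388.9, 431.8 and 336.0 in NT3, again with both arrays numbered 2 on top. The log2 difference was -0.06 ± 0.19 for Lhx9, with an interval from -0.49 to 0.37, and 0.07 ± 0.17 for Emx2, with an interval from -0.31 to 0.44.

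**Figure D2:**
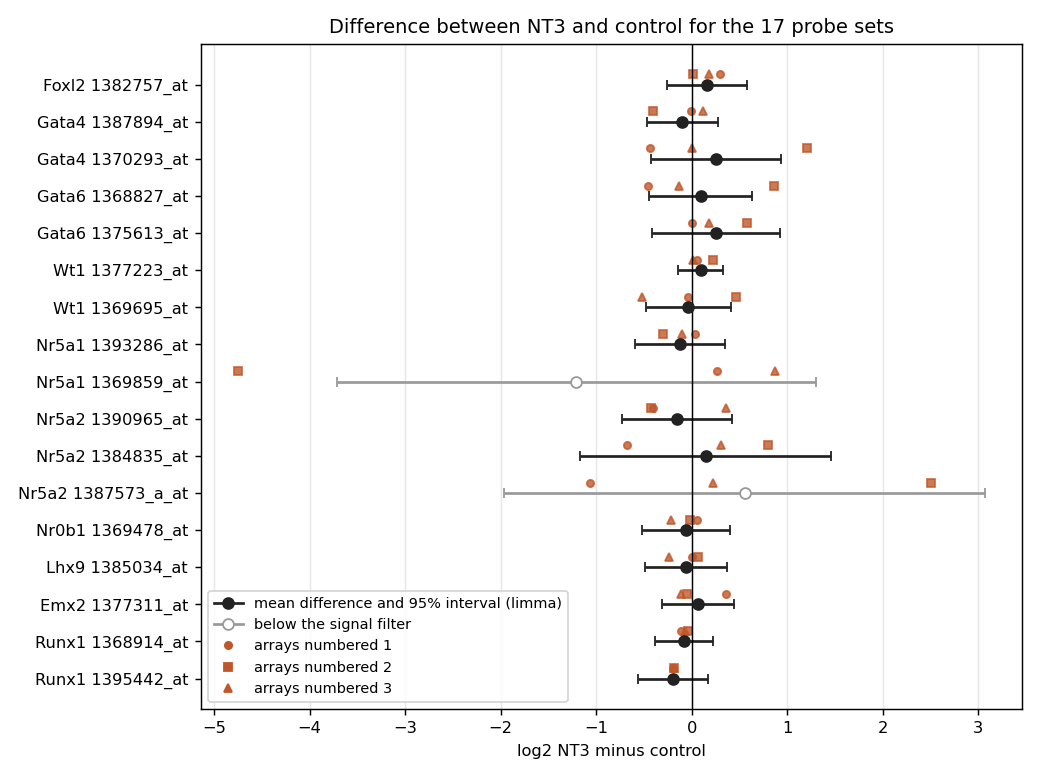
Log2 difference of NT3 minus control for the 17 probe sets, with the mean difference and its 95% interval from limma as circles and bars, and the difference within each replicate number as small orange symbols. Every interval includes 0, the Wt1 probe set 1377223_at has the narrowest, and the 2 open circles mark probe sets below the signal filter.

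Several members stood apart on the arrays numbered 2 in both groups alike. For 9 of the 17 probe sets, or 52.9%, both arrays numbered 2 lay outside the range of the other 4, on the same side. This was so for 27.9% of all tested probe sets. In 5 of the 9 probe sets, from Lhx9, Emx2, Wt1 (1377223_at) and Runx1 (both probe sets), the arrays numbered 2 were higher, and in the other 4, from Nr5a2 (all 3) and Nr0b1, they were lower. For Wt1 1377223_at control replicate 2 was only slightly higher, at 2256.7 against at most 2219.7 on the arrays numbered 1 and 3, and Wt1 1369695_at did not share the pattern. Control replicate 2 alone was outside the range of the arrays numbered 1 and 3 for 15 of 17 probe sets, against 66.3% of all tested, and NT3 replicate 2 for 11 of 17, against 47.7%. The beta-actin ratio of NT3 replicate 2 was 2.91, near those of the other arrays. Number 2, and the genes of other lists set beside it below, were singled out after the values were seen. The labels do not say what samples of 1 number share.

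Markers of the ovarian surface epithelium moved with Lhx9, Emx2 and Runx1. In 7 of the 8 tested genes of that list, all but Lgr5, both arrays numbered 2 were above the other 4, where 14.4% of all tested probe sets were. The keratin gene Krt19 was at 7363.3 and 7191.2 on the arrays numbered 2 and at 4408.7 to 5443.8 on the others. Krt7 was at 796.4 and 876.2 against 448.4 to 546.3, and Krt8 at 1408.0 and 1181.1 against 646.3 to 911.2. The summed signal of the list was 7320 to 12005 in control and 7826 to 11877 in NT3, with control replicate 2 and NT3 replicate 2 the highest, and none of the 8 was at 0. Not all members made in this epithelium shared the pattern. For Gata4, neither 1387894_at nor 1370293_at had both arrays numbered 2 above the other 4. On 1370293_at they were at 70.3 and 162.2, against 126.3 to 171.2 on the others. For Wt1, 1377223_at was higher on both and 1369695_at was not. The part of surface epithelium cells in the member values was not tested.

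Some genes that NR5A and GATA factors switch on were low on the same arrays as Nr5a2. Among 12 tested target genes, 5 were lower on both arrays numbered 2 than on the other 4, where 13.5% of all tested probe sets were, 1 was higher on both and the other 6 were neither. The inhibin subunit gene Inha was at 543.6 and 439.3 on the arrays numbered 2, against 896.0 to 1229.1 on the others. The steroid dehydrogenase gene Hsd3b1 was at 492.8 and 368.1, against 641.5 to 804.8. Hsd17b1, Star and the prolactin receptor gene Prlr were the other 3, and Amhr2, the receptor gene for anti-Müllerian hormone, was the 1 higher on both. Of the 8 tested oocyte genes, 2 (Gdf9 and Bmp15) were lower on both arrays numbered 2, 1 (Sycp3) was higher on both and the rest were neither. Of the 9 tested granulosa markers, 2 (Inha and Hsd17b1, also target genes) were lower on both and 3 were higher on both. Among 8 endothelial genes, 2 were lower on both and 0 higher. A part of Nr5a2 or the GATA factors in these values was not tested. In 7 of these 12 target genes the arrays numbered 3 were both above the other 4, against 7.80% of all tested probe sets.

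**Figure D3:**
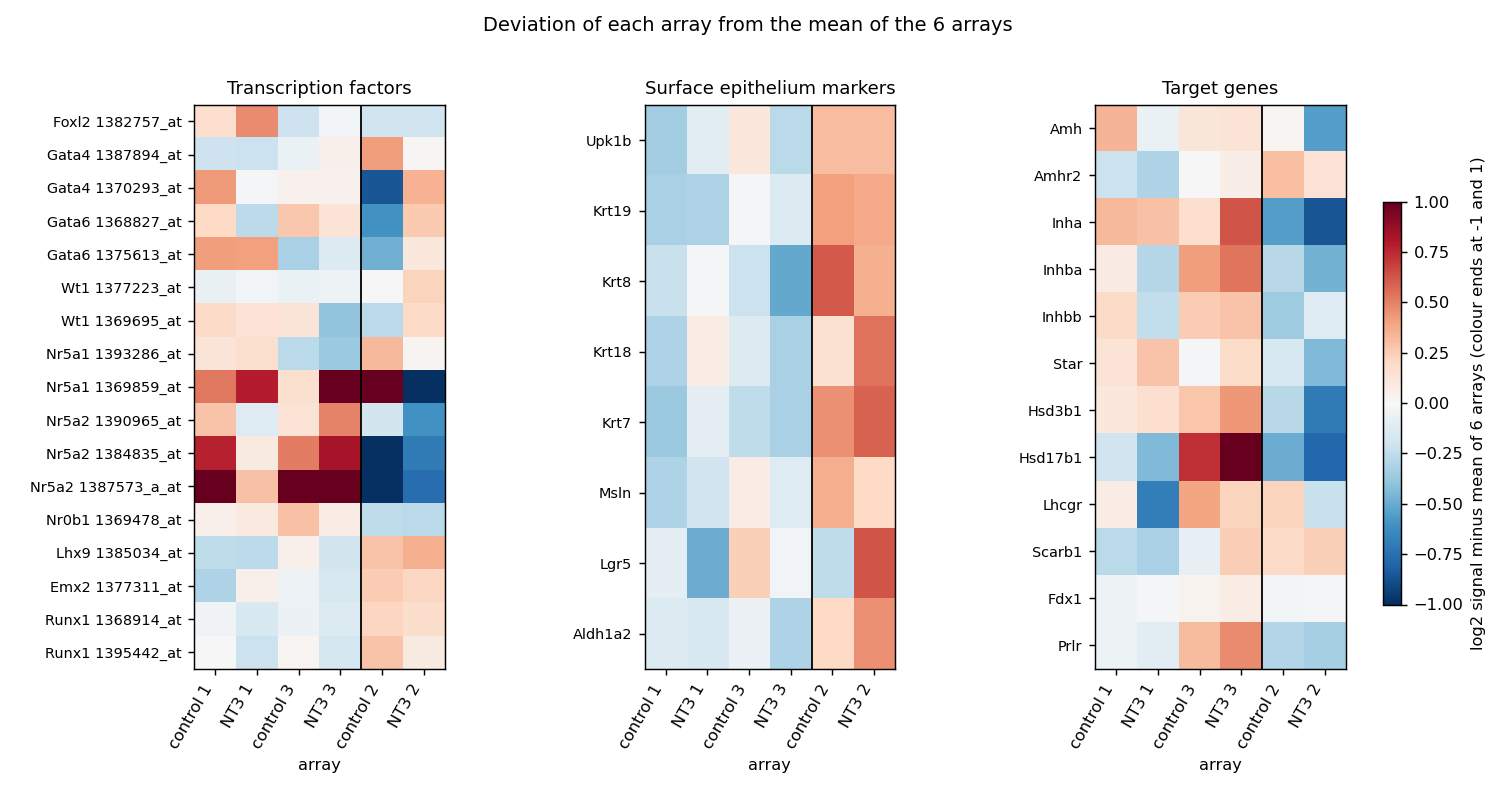
Log2 signal of each array minus the mean of the 6 arrays for the 17 transcription factor probe sets, 8 surface epithelium markers and 12 target genes, with red higher, blue lower and colour ending at -1 and 1. Columns are ordered by replicate number, with the arrays numbered 2 to the right of the line. Lhx9, Emx2 and Runx1 are red there with most surface markers, and Nr5a2 and Nr0b1 are blue with Inha, Hsd3b1 and Prlr.

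With both arrays numbered 2 left out, a choice made after seeing the data, 2 arrays per group remained and no member passed limma either. Of the 15 tested probe sets, 5 were then above and 10 below 0, with a median log2 difference of -0.087. Gata6 1368827_at was at -0.293 in that fit, against 0.09 with all arrays, and Gata4 1387894_at at 0.055, against -0.10.

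The targets of these factors did not pass the test between NT3 and control either. Of the 12 tested genes, 5 were above and 7 below 0, with a median log2 difference of -0.04, and limma called 0 of 12, also at an unadjusted p under 0.05. With no control replicate 2, 3 were above and 9 below with a median of -0.224, and with no NT3 replicate 2 the split was 8 above and 4 below. Amh, the hormone of small growing follicles, gave 251.2, 200.8 and 216.0 in control and 189.4, 135.8 and 217.8 in NT3, or -0.32 ± 0.19. Lhcgr, the luteinizing hormone receptor gene, had -0.46 ± 0.28 near the signal filter, and Scarb1, which takes up cholesterol, 0.11 ± 0.19. Cyp11a1, Cyp17a1, Cyp19a1, Insl3, Nr0b2 and Akr1b7 were below the filter.

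Partners and upstream regulators of the members had 11 of 18 tested genes above 0, a median log2 difference of 0.056 and 0 limma calls, also at an unadjusted p under 0.05. The split was 13 above and 5 below 0 without control replicate 2, where the median was 0.112 and 2 genes had an unadjusted p under 0.05, again with 0 calls, and without NT3 replicate 2 the median was 0.024. The GATA cofactor gene Zfpm1 gave 64.1, 55.5 and 70.2 in control and 46.8, 53.1 and 47.4 in NT3, or -0.36 ± 0.21, with every NT3 array below every control array. It was the 1 of the 18 whose groups were separate, against the background of 5.83%. The other cofactor gene, Zfpm2, had 0.08 ± 0.21. Tcf21, a mesenchymal factor, had 0.27 ± 0.18, and Ctnnb1, the beta-catenin gene of the WNT4 and RSPO1 pathway, 0.13 ± 0.09. Cbfb, the binding partner of RUNX1, had 0.11 ± 0.13; it and Zfpm2 were named for their roles after the values were seen.

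The relatives of the members were mostly near background, with 7 of the 8 annotated ones below the filter. Gata3 was the 1 tested and had a log2 difference of -0.15 ± 0.20. Emx1 gave 28.2, 46.5 and 22.4 in control and 7.2, 10.8 and 11.9 in NT3, and Runx3 20.0, 41.7 and 34.3 in control and 6.4, 17.4 and 19.2 in NT3. In both, all NT3 arrays were lower at signals under the filter, which the main test left out, and both were named after their values were seen. The same held under the filter for Esr1 and Esr2 of the partner list, Cyp11a1 of the targets and Mrap of the adrenal list. The share of all probe sets under the filter with such a separation is not given here. Of the testis pathway that Foxl2 and Runx1 oppose, 3 genes were tested and 0 called: Dhh had -0.53 ± 0.32, Ptgds 0.10 ± 0.28 and Fgf9 -0.046 ± 0.16. Dmrt1, Sox10 and Gdnf were below the filter.

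**Figure D4:**
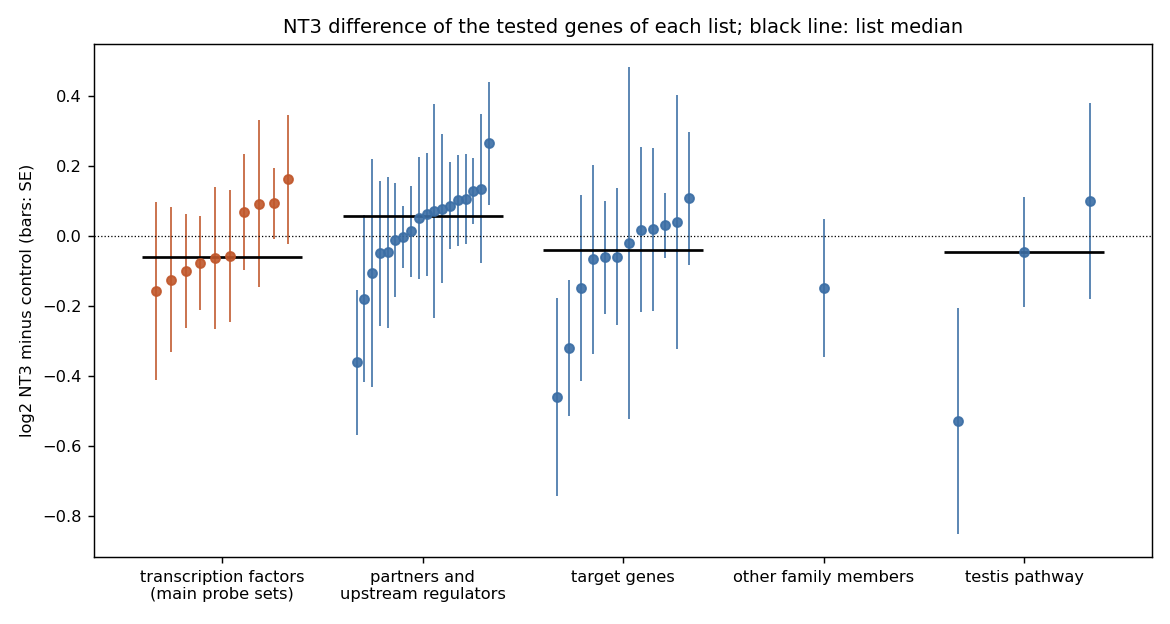
Log2 difference of NT3 minus control for each tested gene, with its SE, for the main probe sets of the 10 transcription factors in orange and the pathway lists in blue, and black lines at list medians. The 10 members lie between -0.16 and 0.16, and the medians of the partner and target lists are 0.056 and -0.04.

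Among the other cell type lists, limma called 0 genes, and the 1 with an unadjusted p under 0.05 was Cldn3 of the oviduct and mesonephros list. The groups were separate in 1 of 8 tested theca and stroma genes (Lum) and 1 of 6 oviduct and mesonephros genes (Cldn3). They were also separate in 2 of 7 leukocyte genes (Ctss and Ptprc), and in all of these NT3 was higher. The granulosa, oocyte, endothelial, surface epithelium and red blood cell lists had 0, and the background over all tested probe sets was 5.83%. Median log2 differences were 0.124 for theca and stroma, -0.06 for granulosa, -0.002 for oocyte, -0.074 for endothelium, 0.269 for oviduct and mesonephros and -0.177 for the 2 tested red blood cell genes. All 8 tested theca and stroma genes were above 0, or 6 of 8 without control replicate 2. The summed signal of that list was 14362 to 15944 in control and 16493 to 17824 in NT3. Its steroid and theca genes Cyp11a1, Cyp17a1 and Insl3 were below the filter and not tested, at log2 differences of -0.97, -0.66 and -0.92. Without control replicate 2 the granulosa, oocyte, theca and stroma, and oviduct and mesonephros medians were -0.226, -0.211, 0.079 and 0.134, and 1 oocyte and 1 theca and stroma gene also had an unadjusted limma p under 0.05. Without both arrays numbered 2 the oviduct and mesonephros median was -0.005, with 3 genes above and 3 below 0. Without NT3 replicate 2 the endothelial median was 0.063. Emx2 is also a gene of mesonephric ducts. The summed signal of the oviduct and mesonephros list was 2039 to 2998 in control and 2562 to 3458 in NT3, and its part in the Emx2 values was not tested.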

How the data were processed

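The deposited values were linear-scale intensities from the authors, 1 for each probe set on each array. MAS5 (version not given in the sources used here) made them, per the submitters' processing notes. Of 31099 probe sets, 57 control probe sets were left out. Signals were taken to log2 with a floor of 0.1 (5 values of 0), with no further scaling, and probe sets below the 40th percentile of mean log2 signal were not tested, which left 18625. NT3 was compared with control in limma 3.58.1 (R 4.3.3), by lmFit and an intensity-trended eBayes, 2-sided, with Benjamini-Hochberg adjustment over all tested probe sets at 0.05. The fit was tested on simulated data. Detection calls were not used here. The 6 arrays limit the precision: the median 95% interval extended 1.32-fold to each side.

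Symbols came from the array annotation, in which 20826 probe sets had 1 symbol and 436 several. All members were named, and from each pathway list the tested genes with the lowest p, at most 3. Other genes singled out, among them those of the cell type lists, were named after the values were seen. The members and lists were chosen with earlier results of these data known.

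Deviations from the group means correlated at 0.23, 0.247 and 0.222 between control and NT3 arrays numbered 1, 2 and 3, which meets the rule for paired samples from the data. Between arrays of different numbers the values were -0.246 to 0.029. The labels state no pairing, and these correlations cannot establish one, since the deviations of 3 arrays from their mean sum to 0. Values are from the fit without a block unless the block is named as an alternative. The alternatives were the replicate number as a block, quantile normalization, median centring, other filters, an offset of 16, no trend, array weights, the mean of a gene's probe sets, single arrays left out and, added later, both arrays numbered 2 left out.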

Additional observations from a re-analysis of the deposited data

How the results depend on the processing

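No tested member probe set had an adjusted limma p under 0.989 under any alternative run, so none was called, and the median member difference stayed within 1 SD of its arrays' spread (0.125). The number of all probe sets with an adjusted p under 0.05 was 0 throughout. The number at an unadjusted p under 0.05, 240 in the report, was 401 with the replicate number as a block, 585 with array weights, 123 with the filter at the 60th percentile, 752 with no filter, 377 with no variance trend and 514 with both arrays numbered 2 left out, and 176 to 656 with single arrays left out. The block, which treats arrays of 1 number as a pair, changed no other call.

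Of the 15 tested probe sets, 3 (Wt1 1377223_at, Gata6 1375613_at and Runx1 1395442_at) kept their sign under all alternatives run. Quantile normalization, median centring and the offset turned none. Array weights turned Gata4 1370293_at to -0.049, Gata4 1387894_at to 0.010, Gata6 1368827_at to -0.175, Lhx9 to 0.015, Nr5a1 1393286_at to 0.021 and Nr5a2 1384835_at to -0.435. Leaving out both arrays numbered 2 turned Gata4 1370293_at to -0.220, Gata4 1387894_at to 0.055, Gata6 1368827_at to -0.293 and Nr5a2 1384835_at to -0.184. The mean of a gene's probe sets, tested or not, gave 0.078 for Gata4 and 0.180 for Nr5a2, since the other probe sets enter with the opposite sign. For Nr5a2 these include the probe set below the filter, 1387573_a_at, whose difference of 0.554 was not tested. With single arrays left out, log2 differences ran from -0.031 to 0.301 for Foxl2, -0.109 to 0.533 for Gata4 1370293_at, -0.227 to 0.085 for Gata4 1387894_at and -0.186 to 0.249 for Gata6 1368827_at. They ran from -0.178 to 0.153 for Wt1 1369695_at, -0.291 to 0.032 for Nr5a1 1393286_at, -0.569 to 0.565 for Nr5a2 1384835_at and -0.447 to 0.107 for Nr5a2 1390965_at. They ran from -0.205 to 0.069 for Nr0b1, -0.250 to 0.072 for Lhx9, -0.068 to 0.212 for Emx2 and -0.182 to 0.012 for Runx1 1368914_at. The causes were not tested, apart from the fewer arrays or probe sets that an alternative uses by its construction. A difference under about 1.32-fold lies within the 95% interval of the median probe set.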
